A study of Arabidopsis thaliana with 4 samples.

Results

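The ATP-citrate lyase subunit genes of Arabidopsis thaliana are described here in seedlings with and without induction of LEAFY COTYLEDON1 (LEC1), an NF-Y type transcription factor that acts in the embryo. The members were chosen by name, as probe sets annotated to 1 gene only with the symbol ACLA-1, ACLA-2, ACLA-3, ACLB-1 or ACLB-2. Of these 5 genes, 4 had such a probe set, 1 probe set each, among 22746 probe sets that are not array controls. ACLB-2 (AT5G49460) is not analysed here. All 4 probe sets passed the filter on dim signals.

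Both groups were whole seedlings of the Columbia ecotype with the pER8-LEC1 transgene, from which LEC1 is expressed once estradiol is added. Per the labels, the LEC1 induced group received 10 µM (0.01 mM) estradiol in its medium over 4 days of growth, and the control group received 0.1% DMSO over the same time. No DMSO content is recorded here for the induced group. Each group had 2 biological replicates, hybridized to Affymetrix ATH1 arrays. None of the 4 arrays holds seedlings that lacked the transgene and received estradiol, and the number of transgenic lines is not given in the sources used here. The series' title names fatty acid biosynthesis as the question.

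ATP-citrate lyase works in the cytosol, where it splits citrate exported from mitochondria into acetyl-CoA and oxaloacetate at the cost of ATP. In plants the enzyme is built from separate A and B subunits, which correspond to different stretches of the single animal polypeptide, and both are needed for activity. Its acetyl-CoA feeds the elongation of fatty acids, the mevalonate pathway of sterols and other isoprenoids, and flavonoids, whereas fatty acid synthesis in plastids draws on acetyl-CoA made inside the plastid, mainly by pyruvate dehydrogenase.

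The 3 measured A subunit genes had higher normalized signals on both induced arrays than on either control array, by 1.66-fold to 2.34-fold between group means, while the signals of the B subunit gene ACLB-1 overlapped between groups. None of these differences passed the test over all probe sets, in a fit without the replicate number. In limma, with Benjamini-Hochberg adjustment, 0 of 4 members had an adjusted p under 0.05, against 5.74% of the 14433 probe sets tested (2.83% upward and 2.91% downward), and the members' adjusted p ranged from 0.0705 to 0.783. Before adjustment 3 of 4 had a limma p under 0.05, against 26.5% of all probe sets tested in either direction and 12.6% upward. The median log2 change was 0.82 over the 4 members and 0.00 over all probe sets tested. In whole seedlings, more cells that use a gene and more RNA per cell cannot be told apart.

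ACLA-3 (AT1G09430), which encodes an A subunit, differed most. Before normalization the control arrays gave signals of 79.6 and 50.1 and the induced arrays 277.9 and 162.9. After quantile normalization, which gives all arrays the same distribution, the values were 85.1 and 71.4 against 181.2 and 183.1. The induced arrays were thus close to each other and stood apart from both controls. The log2 change was 1.22 ± 0.31 SE, a 2.34-fold difference, with a 95% interval of 0.48 to 1.97 (limma adjusted p = 0.0705). Of all probe sets tested, 9.32% had a larger upward change. The probe set was brighter than 78.2% and 75.0% of probe sets on the control arrays and than 88.6% and 88.7% on the induced arrays.

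ACLA-1 (AT1G10670), another A subunit gene, had deposited signals of 519.2 and 351.9 without LEC1 induction and of 1129.6 and 718.4 with it. Its normalized signals were 472.9 and 454.9 against 860.6 and 876.1. On the log2 scale the SD between replicates of these normalized signals was 0.04 in controls and 0.02 in induced seedlings. The log2 change was 0.90 ± 0.25 SE, or 1.87-fold, with a 95% interval of 0.30 to 1.51 (limma adjusted p = 0.0870), and 15.1% of probe sets had a larger upward change. Its size rested on the normalization. With each array centred on the median of the kept probe sets, the change was 0.38 ± 0.31 SE, although the groups still did not overlap. Replicates then lay further apart, at 582.6 and 508.8 in controls and 659.6 and 758.3 after induction. The probe set was among the brighter ones in both groups, above 95.5% and 95.4% of probe sets in controls and above 97.8% on both induced arrays.

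ACLA-2 (AT1G60810), the remaining A subunit gene, gave deposited signals of 123.2 and 106.1 for controls, compared with 333.8 and 202 after induction. The normalized signals were 126.2 and 146.1 against 221.4 and 230.3. Both induced values were higher than both control values, with the smallest gap between any induced and any control array at 0.60 on the log2 scale. The log2 change was 0.73 ± 0.30 SE, or 1.66-fold, with a 95% interval of 0.01 to 1.46 (limma adjusted p = 0.184). With median centring over the kept probe sets it was 0.49 ± 0.32 SE.

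ACLB-1 (AT3G06650) encodes a B subunit. Control arrays gave deposited signals of 405 and 379.2 and induced arrays 515.2 and 554.7, so that as deposited the groups did not overlap. Its deposited log2 change of 0.45 was, however, below the median shift of 0.62 that all kept probe sets showed before normalization. The normalized signals were 377.2 and 488.3 against 359.5 and 662.1, with the first induced array below and the second above both controls. The log2 change was 0.18 ± 0.38 SE with a 95% interval from -0.72 to 1.09 (limma adjusted p = 0.783). Its sign turned to -0.25 with median centring over the kept probe sets and to -0.26 without LEC1 induced replicate 2, and it was 0.64 without LEC1 induced replicate 1. With 2 arrays per group the interval thus spanned both a fall and a rise.

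**Figure D1:**
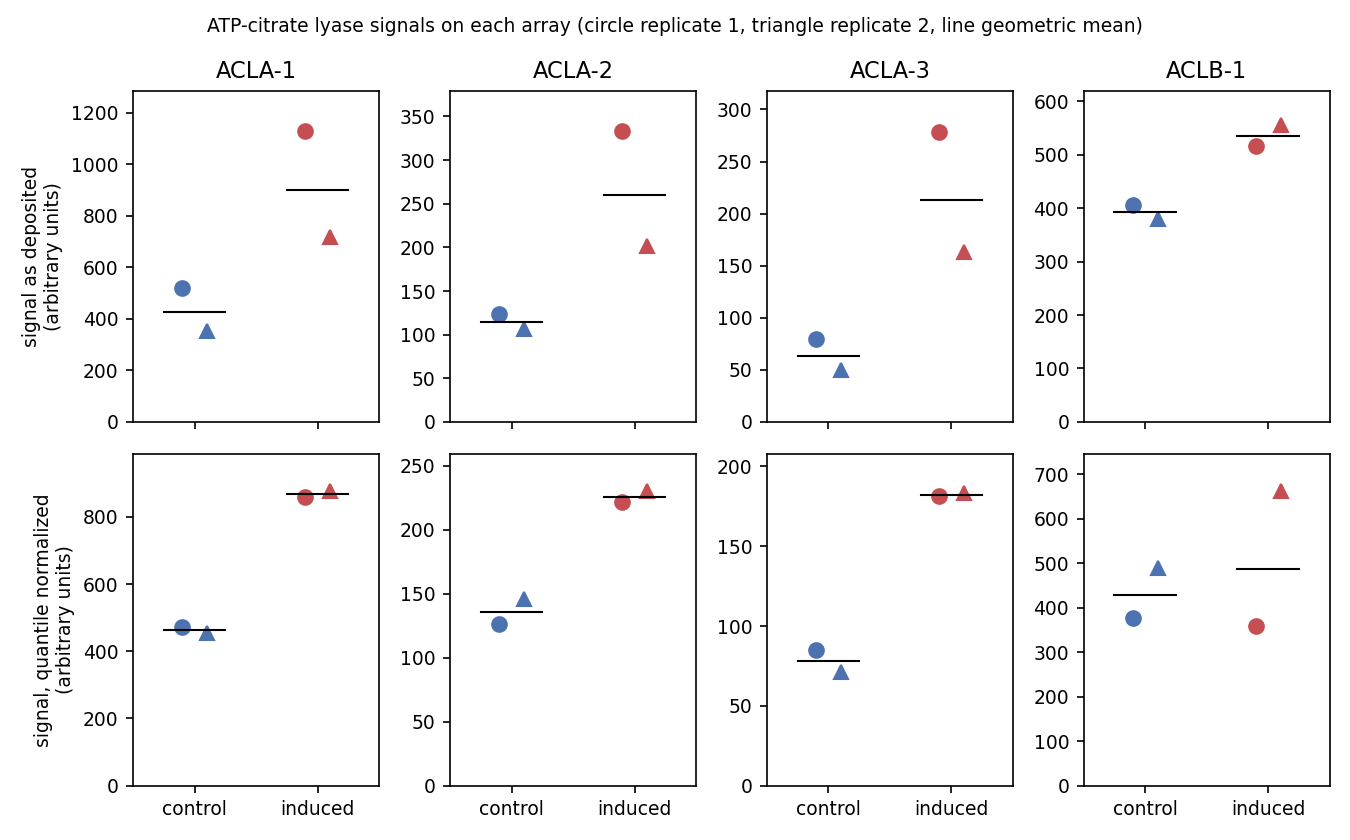
Signal of each ATP-citrate lyase probe set on each of the 4 arrays, on a linear axis in arbitrary units, as deposited (upper panels) and after quantile normalization (lower panels). Circles are replicate 1, triangles are replicate 2 and lines are geometric means of 2 arrays. ACLA-1, ACLA-2 and ACLA-3 lie higher on both induced arrays in either row, whereas ACLB-1 overlaps between groups after normalization.

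Counted over the members, 3 of 4 had groups that did not overlap, all 3 upward, while 58.3% of all probe sets tested had groups apart and 29.3% had them apart upward. For a single gene, 2 arrays against 2 give a two-sided exact permutation p of 0.333 at the smallest, and ACLA-1, ACLA-2 and ACLA-3 had that value. A per-gene two-sided test was named in the design text with a false discovery rate of 0.2. With this methods' t-test on the same quantile normalized values, ACLA-1 passed at that rate (adjusted p = 0.190), as did 2.74% of all probe sets tested. ACLA-3 and ACLA-2 had 0.221 and 0.240 and ACLB-1 had 0.853. The methods' t-test was not run with median centring, where the change of ACLA-1 was 0.38 over kept probe sets.

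**Figure D2:**
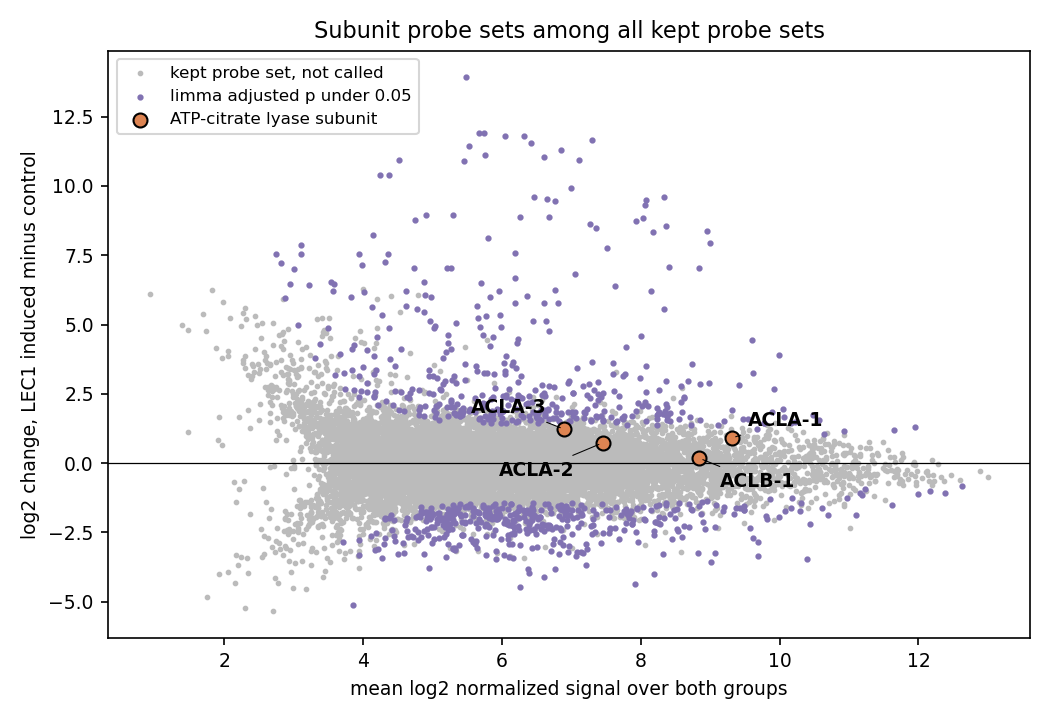
Log2 change (LEC1 induced minus control) against mean log2 normalized signal for the 14433 probe sets tested, each point 1 probe set. The ATP-citrate lyase probe sets (orange) lie in the upper range of signal, with changes of 0.18 to 1.22, inside the cloud of probe sets that did not pass (grey).

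The A and B subunits were then set against each other by the difference between their log2 changes. ACLA-3 changed by 1.04 more than ACLB-1, ACLA-1 by 0.72 more and ACLA-2 by 0.55 more. Between single arrays the difference for ACLA-3 ran from 0.29 to 1.79, that for ACLA-1 from 0.08 to 1.36 and that for ACLA-2 from 0.06 to 1.04. Among the A subunits, ACLA-3 exceeded ACLA-2 by 0.49 and ACLA-1 by 0.32, and ACLA-1 exceeded ACLA-2 by 0.17. All 6 pairs had an exact permutation p of 0.333 (0.333 also after Benjamini-Hochberg adjustment over the 6), the smallest this design allows, so this test could not have called any difference between subunits. From the deposited signals ACLA-3 also exceeded the other A subunits, while the values for ACLA-1 and ACLA-2 overlapped, with a mean difference of -0.11.

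Scaling bore on the size of every member's change. Control arrays had deposited medians of 20 and 15.5, and induced arrays of 39.4 and 22.3. Set against the median change of all kept probe sets, the unnormalized or median-centred changes were 1.14 for ACLA-3, 0.57 for ACLA-2, 0.46 for ACLA-1 and -0.17 for ACLB-1. The A subunits were thus above that median with either scaling, and the groups of all 3 stayed apart, while ACLB-1 lay on different sides of it. Leaving out any single array kept the A subunit changes between 0.60 and 1.30.

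**Figure D3:**
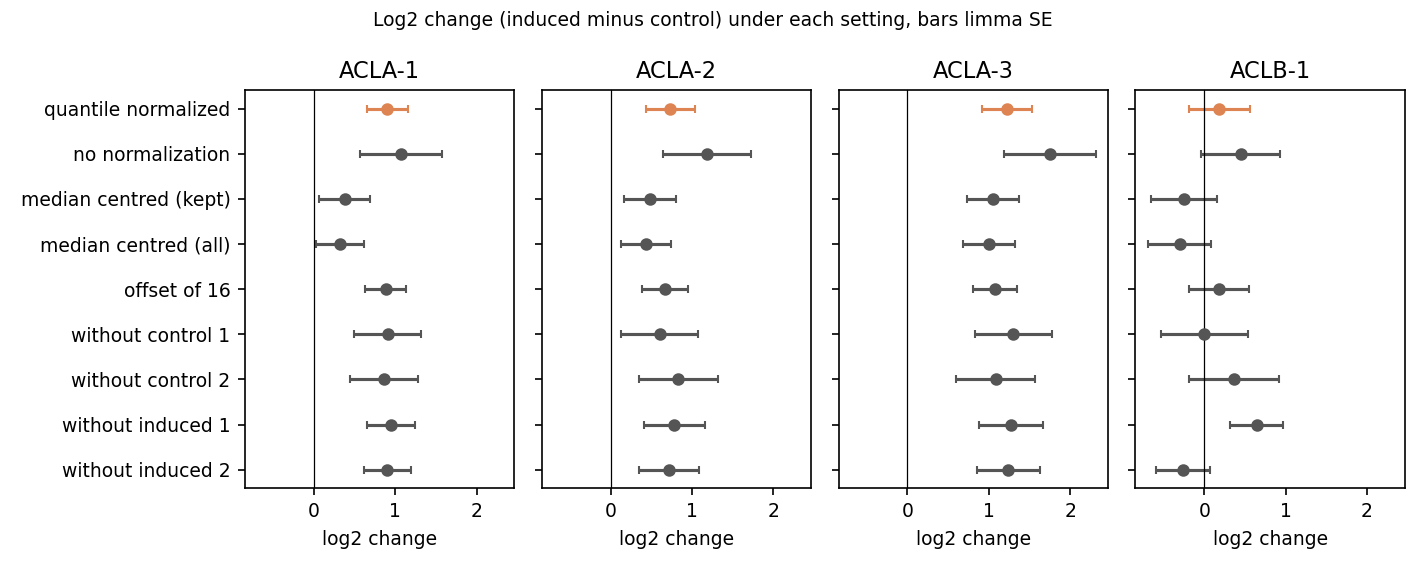
Log2 change (LEC1 induced minus control) of each subunit gene under each scaling and with each array left out, with bars of ± 1 limma SE. The 3 A subunit genes are above 0 under all settings drawn, and ACLB-1 lies on either side of 0.

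Control probe sets and tissue markers also differed between the groups. The 3' to 5' signal ratio of an actin control came to 3.28 and 3.01 for the controls against 1.96 and 1.94 after induction, whereas a second actin pair gave 21.8 and 25.1 against 21.6 and 20.7. For a GAPDH control the ratio was 0.773 and 0.890 in controls and 0.932 and 0.911 after induction. Of 10 listed embryo and seed storage markers, 4 were named on the array, and their summed normalized signal was 51.9 to 57.0 in controls and 19800 to 21109 in induced seedlings. In controls the storage protein gene PAP85 was near 0, at 0.346 and 0.372. The 3 named of 12 leaf and photosynthesis markers summed to 7540 to 8730 in controls and 3301 to 4457 in induced seedlings, so seedling markers were present in both groups. The 4 named of 8 root markers summed to 3970 to 3979 and 3895 to 4182, a sum carried mostly by PYK10 (2880 and 2799 against 3724 and 2973). The other root markers had log2 changes of -0.60 (AT5G17820), -1.23 (EXPA7) and -1.75 (EXPA18), and none of the 4 passed (limma adjusted p from 0.0594 to 0.495). The part of these differences in the subunit values was not tested.

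Genes of neighbouring steps were taken from 4 lists of 70 genes, of which 11 were named on the array and all 11 were measured. In limma 0 of these 11 passed after adjustment, against 5.74% of all probe sets tested, and 5 had an unadjusted p under 0.05, against 26.5%. The change was positive in 8 of 11, against 50.0% of all probe sets tested, and their median was 0.26 on the log2 scale. With median centring over the kept probe sets it was positive in 5 of 11, against 46.2%, with a median of -0.04. The list of cytosolic malonyl-CoA and fatty acid elongation (23 genes) had no named probe set and is not analysed here.

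On the side of citrate supply, 2 of 15 listed genes were measured. The cytosolic isocitrate dehydrogenase gene cICDH, whose enzyme draws on the same cytosolic citrate pool through isocitrate, had normalized signals of 1158 and 1403 against 2301 and 1822 after induction (log2 change 0.68 ± 0.24 SE, limma adjusted p = 0.139). Its change was -0.04 with median centring over kept probe sets, and 0.53 to 0.85 with one array left out. The mitochondrial dicarboxylate and tricarboxylate carrier gene AT5G19760, whose product can carry citrate out of mitochondria, differed by -0.11 (limma adjusted p = 0.812).

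Among other sources of acetyl-CoA, 7 of 16 listed genes were measured, with a median of 0.26. Both named genes of plastid pyruvate dehydrogenase were higher on both induced arrays than on either control, as were 29.3% of all probe sets tested. The other listed genes of that complex had no named probe set. AT2G34590, for an E1 beta subunit, had normalized signals of 332.8 and 333.5 against 752.3 and 750.1 (log2 change 1.17 ± 0.26 SE, limma adjusted p = 0.0547). AT4G16155, for a dihydrolipoamide dehydrogenase, differed by 1.18 (limma adjusted p = 0.0955). With median centring the change of AT2G34590 was 0.72 over kept probe sets (limma adjusted p = 0.179) and 0.66 over all (0.193). A call of AT2G34590 was gained with a stricter filter at the 60th percentile (limma adjusted p = 0.0492), where 9.23% of all probe sets were called. The same held with an offset of 16 (limma adjusted p = 0.0487, against 7.93%). There was no call without normalization (limma adjusted p = 0.132) or with a prior without a trend (0.103). With one array left out the change of AT2G34590 was 1.14 to 1.21.

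The mitochondrial pyruvate dehydrogenase genes did not share a direction. MAB1, an E1 beta subunit gene, and LTA3, an E2 gene, differed by 0.16 and 0.26. The E2 genes AT3G13930 and AT1G54220 differed by -0.40 and -1.30. Groups did not overlap for AT3G13930, AT1G54220 and MAB1, as for 58.3% of all probe sets tested in either direction. As deposited, the signals of AT3G13930 overlapped (346.1 and 296.7 in controls, 370.6 and 252.9 after induction). AT1G54220 went from a mean of 145.9 to 59.4 (limma adjusted p = 0.104). ACS, for the plastid acetyl-CoA synthetase that activates acetate, differed by 0.33 (limma adjusted p = 0.566).

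In the mevalonate pathway, which uses cytosolic acetyl-CoA, 2 of 16 listed genes were measured. AT1G31910, for phosphomevalonate kinase, had normalized signals of 229 and 201.7 against 256.7 and 258.6 (log2 change 0.26 ± 0.29 SE, limma adjusted p = 0.598). AT3G54250, for a mevalonate diphosphate decarboxylase, had a mean of 20.1 in controls and 45.6 in induced seedlings (log2 change 1.18, limma adjusted p = 0.108). It was dim in controls, with deposited signals of 15.4 and 15.6 beside array medians of 20 and 15.5.

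**Figure D4:**
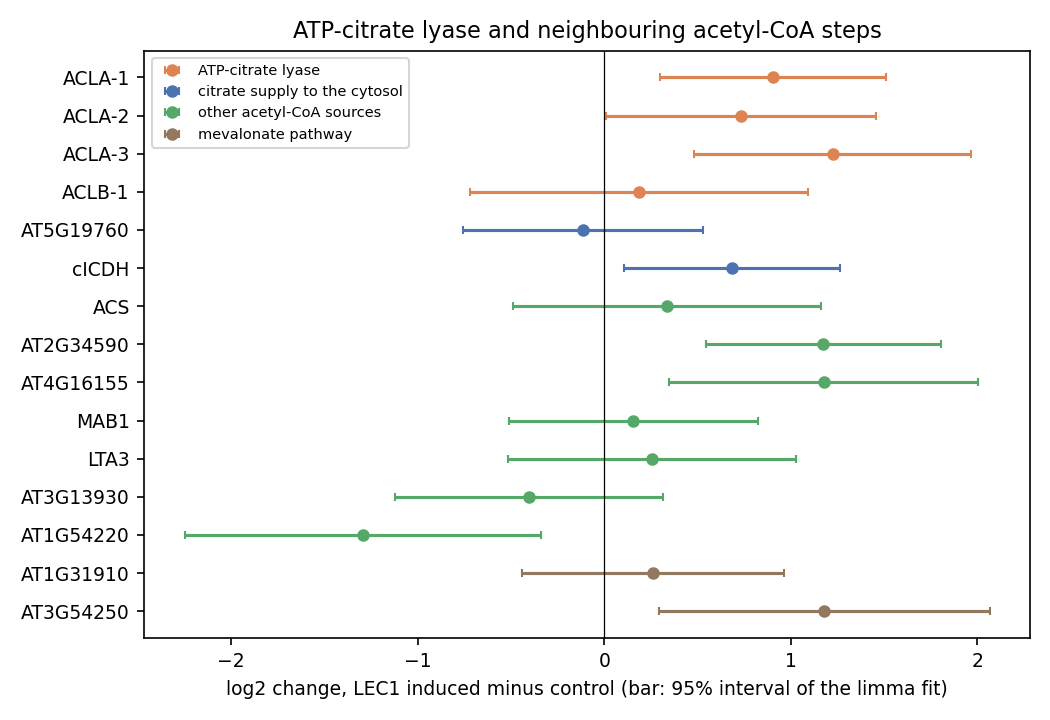
Log2 change (LEC1 induced minus control) with its 95% interval from the limma fit for the 4 ATP-citrate lyase genes and the 11 measured genes of neighbouring steps, coloured by list. No gene drawn passed limma's adjusted p of 0.05. AT2G34590 and AT4G16155 have changes of 1.17 and 1.18, near the 1.22 of ACLA-3, and AT1G54220 lies lowest at -1.30.

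Likeness of pattern was measured as the Euclidean distance between centred log2 signals over the 4 arrays. Within the family, ACLA-1 and ACLA-2 were closest, at 0.26, followed by ACLA-1 and ACLA-3 at 0.35, while ACLB-1 was 0.81 to 1.28 from the A subunits. No member was the probe set nearest to another member. Of 14432 other probe sets, 231 were nearer to ACLA-1 than ACLA-2 was and 5229 were nearer to it than ACLB-1 was. Among 7696 other named genes, the 5 nearest to ACLA-1 were AT4G18820, AT5G61970, AT5G06830, AT5G12400 and AT3G17940, at 0.03 to 0.08. Those nearest to ACLA-2 were AT5G49555, the ubiquitin-conjugating enzyme gene UBC18, AT5G09850, AT3G19540 and AT5G51570, at 0.06 to 0.07. Those nearest to ACLA-3 were AT5G51490, the LIM domain gene WLIM1, AT5G16880, AT2G13690 and AT4G31890, at 0.09 to 0.10. Those nearest to ACLB-1 were the transcription factor gene WRKY20, AT1G61850, AT1G51980, AT1G78060 and AT2G18750, at 0.05 to 0.09. Of the genes listed as nearest, AT4G31890 and AT5G06830 were the dimmest in controls, with normalized means of 13.5 and 15.1. Over 4 arrays a like pattern was common, with 335 to 861 named genes within 0.5 of a member.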

How the data were processed

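The table deposited by the authors holds a linear signal intensity for every probe set on each array. MAS5 is named in the submitters' processing notes, without its scaling target or detection calls. Of 22810 probe sets, 64 array controls were left out. Values under 0.1 (8 values) were set to 0.1, and log2 values were quantile normalized because array medians differed. The filter asked for a signal over an array's 40th percentile on 2 or more arrays, and 14433 probe sets passed. The main test was limma's (version 3.58.1, R 4.3.3), with lmFit and a trended eBayes prior, two-sided, Benjamini-Hochberg over all kept probe sets, threshold 0.05. The fit was tested on simulated data with planted changes larger than those of the members and without array or replicate effects. That simulation therefore cannot show how the fit does with changes of the members' size. Probe sets were named from the platform annotation, with symbols from the TAIR10.1 gene table, and 13436 of 13513 probe sets naming 1 gene matched a locus. No genome build is named with the table, so neither positions nor sequences are shown. The planned promoter motif search was not run. Alternatives changed the normalization, filter, offset, variance prior, replicate block and arrays used. Hybridization between similar subunit genes was not tested. The members and lists were chosen with earlier results of these data known. Named genes were all members, up to 4 called genes per list or else its brightest, and the 5 genes nearest in pattern. The other measured list genes were named after their values were seen. Only 2 arrays per group limit the precision.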

Additional observations from a re-analysis of the deposited data

How the results depend on the processing

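The A subunit changes kept their direction under all settings run. Without a replicate left out, ACLA-1 ranged down to 0.32, ACLA-2 to 0.43 and ACLA-3 to 1.00, each with median centring over all probe sets, and up to 1.08, 1.18 and 1.75 without normalization. With one array left out they were 0.86 to 0.95, 0.60 to 0.83 and 1.08 to 1.30, and none passed. ACLB-1 turned to -0.30 with median centring over all probe sets and to -0.25 over kept ones, and it ranged from -0.26 to 0.64 with one array left out. Centring also turned cICDH (-0.090 over all, -0.037 over kept) and AT1G31910 (-0.10 and -0.049). Centring over kept probe sets was chosen after seeing the data.

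The labels do not say that a replicate number marks a shared batch, and same-numbered arrays deviated together at a correlation of 0.31, the same for both numbers with 2 arrays a group. Added poly-A spike signals had geometric means of 336.9 and 227.3 on the replicate 1 arrays and 80.7 and 84.9 on the replicate 2 arrays (control, then induced). With the replicate number as a block, ACLA-1 (0.90, limma adjusted p = 0.0452) and ACLA-3 (1.22, 0.0262) passed, so 2 members were called, against 17.9% of all probe sets. With the replicate block and centring over kept probe sets, 1 member was called, ACLA-3 (1.05, limma adjusted p = 0.0353), against 20.3% of all probe sets. In that setting ACLB-1 was at -0.25, and cICDH and AT1G31910 were at -0.037 and -0.049. Under the methods' t-test, run only on the quantile normalized values, the change of ACLA-1, 0.90, passed its rate of 0.2.

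Over all probe sets 828 were called (408 upward and 420 downward). The count was 1409 with centring over all probe sets (447 upward, 962 downward), 1324 over kept ones (478, 846), 381 with a prior without a trend, 396 by the methods' t-test, 2583 with the replicate block, 2937 with block and centring, and 155 to 1762 with one array left out. Without normalization 494 were upward and 97 downward. Of the 11 neighbouring genes, 1 was called with the stricter filter and 1 with an offset (AT2G34590 in both), against 9.23% and 7.93% of all probe sets tested. With the replicate block 4 were called (AT4G16155, AT3G54250, AT1G54220 and AT2G34590), against 17.9%. With block and centring 3 were called (the first 3 of these), against 20.3%. Ranked by Pearson correlation in place of distance, 0 of the 5 genes nearest to ACLA-1, ACLA-3 and ACLB-1 and 1 of those nearest to ACLA-2 were also among the 5 best.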

Other observations

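In the gene table ACLA-1 lies next to AT1G10660, the 1 immediate neighbour of a subunit gene that was measured. AT1G10660 had normalized means of 32.9 in controls and 31.0 in induced seedlings, a log2 change of -0.09 ± 0.36 SE (limma adjusted p = 0.899). Within a distance of 0.5 in pattern lay 688 named genes for ACLA-1, 861 for ACLA-2, 335 for ACLA-3 and 606 for ACLB-1, each of 7696.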
